A study of Homo sapiens with 9 samples.

Results

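The 10 transcripts described here belong to the bone morphogenetic protein (BMP) pathway and were measured in MDA-MB-231 cells depleted of the long noncoding RNA MILIP. They are the ligand BMP4, the response genes ID1, ID2, ID3, ID4, ATOH8, SMAD6 and SMAD9, and the secreted antagonists CHRDL1 and SOST. They were taken by gene symbol as 10 of the 60612 genes listed, and were chosen on results of these same libraries, so all their comparisons, also between the siRNAs, are given as a description. Counts of members called are printed beside the share over all genes, and no p-value is given for a member. MDA-MB-231 is an established human triple-negative breast cancer line. All 3 groups were this line, transfected with a siRNA and harvested 48 hours later: a negative control siRNA in 3 libraries, siRNA1 against MILIP in 3, and siRNA2 against MILIP in 3, 9 libraries together. No other treatment or allele separates the groups, and the cells grew in serum, a source of ligands that RNA does not show. The treatment text of the labels names siRNAs against another transcript, PLANE, whereas the sample labels name MILIP. Whether a group's 3 libraries are separate cultures is not stated in the labels. The p-values therefore measure only how far these libraries spread, which may be technical.

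BMPs are secreted ligands of the transforming growth factor beta superfamily. They bind type I and type II receptor kinases at the cell surface, which phosphorylate SMAD1, SMAD5 and SMAD9. These join SMAD4, enter the nucleus and bind GC-rich elements near genes such as ID1, ID2 and ID3, whose RNA is a common readout of the pathway. ID proteins lack a DNA-binding region and hold basic helix-loop-helix factors away from DNA. ID1 and ID3 have been studied in breast cancer for their part in tumour initiation and lung metastasis. Several outputs of the pathway restrain it: SMAD6 blocks the receptors and the SMADs from inside the cell, and secreted antagonists such as chordin-like proteins and noggin bind the ligands outside it.

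Total gene counts were 15281220 to 19759371 per library, and 15345 genes had enough counts to be tested, the 10 members among them. Levels are given as counts per 1e+06 counts after TMM scaling (CPM). In RNA of whole cultures, fewer cells with a transcript and less of it per cell cannot be told apart. Comparisons between genes use the deposited FPKM, which also divides by gene length. MILIP, listed as MAFG-DT, was counted 133, 126 and 148 times in the control group, 19, 11 and 37 times with siRNA1, and 10, 19 and 6 times with siRNA2. Its log2 change was -2.74 (SE 0.256) with siRNA1 and -3.73 (SE 0.287) with siRNA2, and no siRNA library reached the control level. Both siRNAs moved a large part of the transcriptome. With edgeR's quasi-likelihood test at an adjusted p below 0.05, 50.4% of tested genes were called with siRNA1 (25.1% higher, 25.3% lower) and 56.1% with siRNA2 (27.2% higher, 28.9% lower). Between the siRNAs 60.4% were called (28.4% higher with siRNA2, 32.0% lower). Of the line's markers, VIM, ESR1 and PGR fitted the label: VIM ranged from 4013 to 4942 CPM, ESR1 stayed at or below 0.955 CPM, and PGR had 1 count in the 9 libraries. CD44, also looked for as a high gene of this line, ranged from 621 to 960 CPM. ERBB2, looked for as a low gene of triple-negative cells, was detected at 50.1 to 76.1 CPM, and no cut-off for low was set. The epithelial genes CDH1 and EPCAM ranged from 0.470 to 2.28 and from 3.20 to 6.97 CPM, and the endothelial gene PECAM1 from 2.98 to 8.81. The leukocyte marker PTPRC had at most 1 count in a library.

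Of the 10 members, 8 were called higher and 2 lower with siRNA1, and 7 higher and 1 lower with siRNA2. There were 7 (ID1, ID2, ID3, ATOH8, SMAD6, SOST and BMP4) called higher with both, where 11.8% of all tested genes were, and CHRDL1 was called lower with both, where 11.1% were. In 8, ID4 included, every siRNA library lay above every control library with both siRNAs, as in 13.0% of tested genes. The members' median log2 change was 1.28 with siRNA1 and 1.02 with siRNA2, beside 0.00318 and -0.0108 over all tested genes. Because the members were chosen on these results, nothing is read from the counts or medians. The 2 comparisons also share their control libraries.

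Within groups, control replicate 3 and siRNA1 replicate 2 stood further from the other libraries of their group than those did from each other. The chi-square per gene was 8.78 and 7.50 between control replicate 3 and the other control libraries, which differed by 2.86, and 6.25 and 7.65 between siRNA1 replicate 2 and the other siRNA1 libraries, which differed by 2.45. Without control replicate 3 the log2 changes of the 10 members moved by at most 0.152 with siRNA1 and 0.133 with siRNA2, and without siRNA1 replicate 2 by at most 0.148 with siRNA1. The largest shift was that of SMAD9 each time, and 0 members changed sign.

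**Figure D1:**
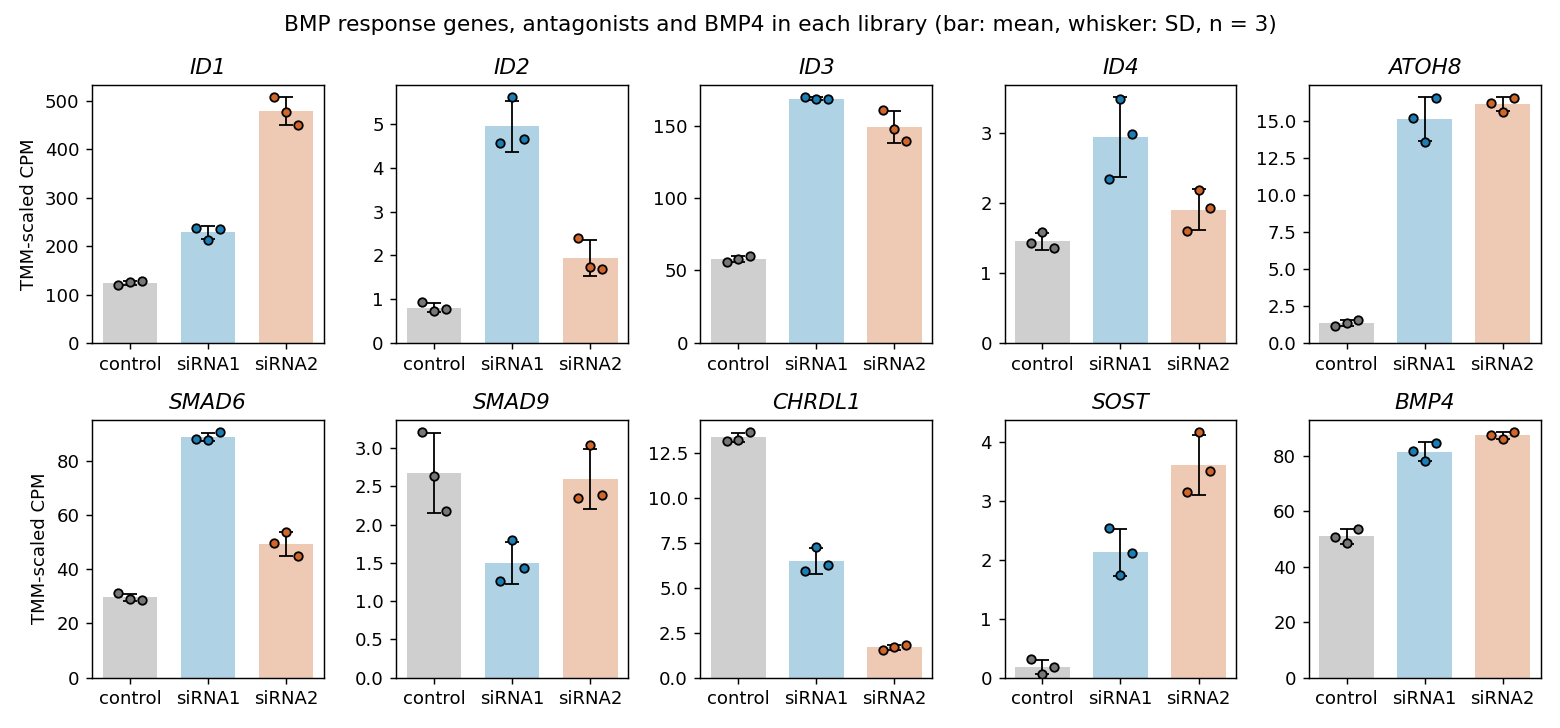
Level of each member in TMM-scaled CPM (vertical axes, each from 0) in the control, siRNA1 and siRNA2 groups; points are libraries, bars means and whiskers SD (n = 3). ID1 is highest with siRNA2, ID2 and SMAD6 are highest with siRNA1, ATOH8 and BMP4 are similar with both siRNAs, and CHRDL1 is lowest with siRNA2.

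The promoters of 5 members are shown because these genes carry the main patterns described next: a response to both siRNAs of like size (ATOH8), larger with siRNA2 (ID1), larger with siRNA1 (SMAD6), nearly equal (ID3), and a lower level (CHRDL1). Each run is the RefSeq window from 250 bases before to 50 after an annotated start in GRCh38.p14, 5′ to 3′ on the gene's strand. For ATOH8 this window lies inside the gene span given below, so the RefSeq start is not the outer end of that span. The same holds for the windows of ID2, SMAD9 and BMP4. Capitals mark GGAGCC on either strand (its reverse reads GGCTCC), a GC-rich element of the kind that BMP-regulated SMADs bind, and, in SMAD6, the palindrome GTCTAGAC as well. The positions are chr20:31605039-31605338 (plus) for ID1, chr1:23559452-23559751 (minus) for ID3, chr15:66701986-66702285 (plus) for SMAD6, chr2:85753741-85754040 (plus) for ATOH8 and chrX:110795768-110796067 (minus) for CHRDL1.
ID1: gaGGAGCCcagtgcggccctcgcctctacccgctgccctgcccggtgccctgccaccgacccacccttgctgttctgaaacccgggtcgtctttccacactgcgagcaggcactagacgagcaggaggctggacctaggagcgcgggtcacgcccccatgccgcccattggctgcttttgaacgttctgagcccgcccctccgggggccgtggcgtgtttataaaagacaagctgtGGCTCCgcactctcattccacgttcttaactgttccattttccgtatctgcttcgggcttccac
ID3: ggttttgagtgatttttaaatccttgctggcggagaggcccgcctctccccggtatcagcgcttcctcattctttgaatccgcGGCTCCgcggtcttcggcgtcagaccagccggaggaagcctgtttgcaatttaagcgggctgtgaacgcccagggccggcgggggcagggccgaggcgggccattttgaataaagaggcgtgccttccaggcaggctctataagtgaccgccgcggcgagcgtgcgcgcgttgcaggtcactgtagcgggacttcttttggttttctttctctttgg
SMAD6: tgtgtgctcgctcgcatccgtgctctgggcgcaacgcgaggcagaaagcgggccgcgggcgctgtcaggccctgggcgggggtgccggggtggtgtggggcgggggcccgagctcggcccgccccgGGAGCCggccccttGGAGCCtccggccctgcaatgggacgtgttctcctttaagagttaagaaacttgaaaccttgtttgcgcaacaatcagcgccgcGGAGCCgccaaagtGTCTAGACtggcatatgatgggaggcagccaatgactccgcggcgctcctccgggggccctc
ATOH8: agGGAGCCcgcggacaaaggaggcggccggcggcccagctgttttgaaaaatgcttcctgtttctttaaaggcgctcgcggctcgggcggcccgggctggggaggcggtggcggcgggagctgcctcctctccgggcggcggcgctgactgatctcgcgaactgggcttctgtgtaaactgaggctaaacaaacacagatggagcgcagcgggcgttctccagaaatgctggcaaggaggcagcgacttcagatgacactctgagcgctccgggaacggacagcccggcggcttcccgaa
CHRDL1: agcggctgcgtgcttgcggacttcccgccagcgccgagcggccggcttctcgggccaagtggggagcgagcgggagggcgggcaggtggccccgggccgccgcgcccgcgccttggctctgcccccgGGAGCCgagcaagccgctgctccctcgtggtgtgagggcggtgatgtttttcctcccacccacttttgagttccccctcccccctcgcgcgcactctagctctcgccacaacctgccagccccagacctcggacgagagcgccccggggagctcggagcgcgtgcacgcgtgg

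All 10 members had such a window, 12 windows in all because BMP4 has 3. GGAGCC, searched on both strands, was in 8 of the 12 windows and in 36.0% of all 35116 windows. It was held by ID1, ID3, ID4, ATOH8, SMAD6, SMAD9, BMP4 and also CHRDL1, which stood lower with both siRNAs, and not by ID2 or SOST. The members' windows are rich in G and C, with a median of 67% against 58.7% over all windows, and the match depends on base composition. GGCGCC was in 1 of the 12 windows, of BMP4, and in 19.2% of all. The composite elements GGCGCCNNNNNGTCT and GGAGCCNNNNNGTCT, which contain the shorter motifs, were in 0 member windows and in 0.103% and 0.142% of all. GTCTAGAC, added after the windows were read, was in SMAD6 and in 0.202% of all windows. A match describes letters, and no binding was measured here.

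BMP4 is the member that encodes a ligand (chr14:53949736-53958761, minus strand, GRCh38). Its level was 50.7, 48.4 and 53.6 CPM in the control group, 81.8, 77.9 and 84.6 CPM with siRNA1, and 87.6, 86.0 and 88.4 CPM with siRNA2. Every siRNA library lay above every control library, and the siRNA groups lay close to each other. The log2 change was 0.68 (SE 0.0669) with siRNA1 and 0.78 (SE 0.0666) with siRNA2. The libraries of siRNA2 all lay above those of siRNA1, and the ratio between them was 1.07 (95% interval 0.982 to 1.17). BMP4 overlaps a gene on the opposite strand, AL138479.2, which had 223 counts in all libraries together, and the sources used here do not say whether counting used strand. Of 14 other BMP and GDF ligands on a list of pathway genes, 13 fell below the count filter. The remaining one, BMP8B, was at 6.93 CPM in the control group, 6.93 CPM with siRNA1 and 9.17 CPM with siRNA2 (log2 change over control 0.40, SE 0.136, adjusted p = 0.0142). That call for BMP8B was lost without control replicate 3 (adjusted p = 0.0501) or siRNA2 replicate 3 (0.0903). BMP8B also overlaps a gene on the opposite strand, PPIE, which had more counts in all libraries together than BMP8B. Whether this overlap enters the BMP8B level was not tested.

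ID1 (chr20:31605283-31606515, plus strand) was the most abundant member per length in every group, at 99.6 ± 2.78 FPKM in the control group, 187.6 ± 9.79 with siRNA1 and 385.3 ± 18.7 with siRNA2 (SD, n = 3 each). In CPM it was 119, 125 and 127 in the control group, 237, 213 and 236 with siRNA1, and 508, 478 and 450.5 with siRNA2, and so formed 3 steps with no overlap. The log2 change over control was 0.89 (SE 0.0614) with siRNA1 and 1.95 (SE 0.0621) with siRNA2. ID1 was thus 2.09-fold higher with siRNA2 than with siRNA1 (95% interval 1.93 to 2.27).

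ID3 (chr1:23557926-23559501, minus strand) was second to ID1 in abundance per length. It was at 55.9, 58.1 and 60.3 CPM in the control group, 169.6, 168.2 and 168.3 CPM with siRNA1, and 160.8, 147.6 and 139.2 CPM with siRNA2. Unlike ID1, it stood slightly higher with siRNA1 than with siRNA2. The log2 change over control was 1.54 (SE 0.0650) with siRNA1 and 1.36 (SE 0.0650) with siRNA2. Between the siRNAs ID3 differed by -0.18 on the log2 scale (SE 0.0614), and by -0.23 to -0.13 over the alternative analyses.

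ID2 and ID4 were scarce. ID2 (chr2:8678845-8684461, plus strand) was at 0.926, 0.726 and 0.764 CPM in the control group, 4.56, 5.62 and 4.67 CPM with siRNA1, and 2.40, 1.73 and 1.69 CPM with siRNA2. The control libraries held 39 ID2 counts together, against 263 with siRNA1 and 108 with siRNA2. The groups did not overlap, and siRNA1 gave the higher level. The log2 change over control was 2.61 (SE 0.252) with siRNA1 and 1.26 (SE 0.284) with siRNA2, and siRNA2 stood below siRNA1 by -1.35 (SE 0.211). ID2 overlaps ID2-AS1 on the opposite strand, which had 18 counts in all.

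ID4 (chr6:19837370-19842197, plus strand) was at 1.42, 1.58 and 1.35 CPM in the control group, 2.34, 3.48 and 2.98 CPM with siRNA1, and 1.60, 2.18 and 1.92 CPM with siRNA2. Both siRNA groups lay above control, with siRNA2 only just above it. The log2 change was 1.02 (SE 0.249) with siRNA1 and 0.39 (SE 0.263) with siRNA2. The 95% interval of the ratio to control was 0.918 to 1.88 with siRNA2, which includes no change. The siRNAs differed by -0.63 (SE 0.233), or by -0.49 without siRNA1 replicate 2. ID4 overlaps LNC-LBCS on the opposite strand, which had 69 counts in all.

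Summed over the 4 ID genes, the level per length was 138.9 ± 3.86 FPKM in the control group, 304.6 ± 8.95 with siRNA1 and 485.6 ± 24.9 with siRNA2. The make-up differed between the siRNAs. ID1 was 71.7% ± 0.182 of the summed FPKM in the control group, 61.6% ± 1.43 with siRNA1 and 79.4% ± 0.240 with siRNA2, and ID3 was 27.8% ± 0.205, 37.5% ± 1.27 and 20.4% ± 0.231 (SD, n = 3 each). ID2 and ID4 together held under 1% in each group's mean. Shares were therefore moved towards ID3 with siRNA1 and towards ID1 with siRNA2.

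**Figure D2:**
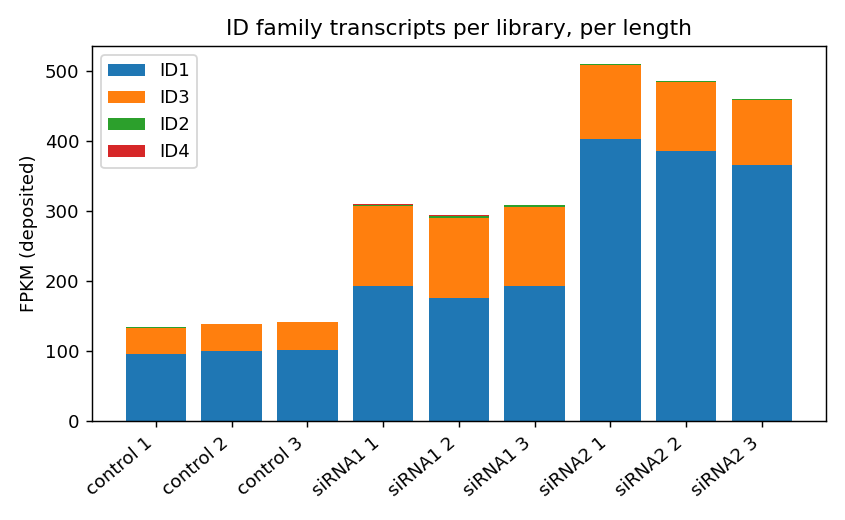
Deposited FPKM of ID1, ID3, ID2 and ID4 stacked for each of the 9 libraries (vertical axis from 0). The sum is lowest in the 3 control libraries and highest in the 3 siRNA2 libraries, and ID2 and ID4 are barely visible beside ID1 and ID3.

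ATOH8 encodes a basic helix-loop-helix factor that responds to BMP signals in endothelium (chr2:85751344-85791383, plus strand). The short gene MIR6071 lies on its opposite strand, with 5 counts in all. It was at 1.17, 1.32 and 1.53 CPM in the control group, 15.2, 13.6 and 16.5 CPM with siRNA1, and 16.2, 15.6 and 16.5 CPM with siRNA2. The siRNA libraries overlapped each other and lay far above control. ATOH8 was 11.2-fold above control with siRNA1 (log2 change 3.49, SE 0.158) and 11.9-fold with siRNA2 (3.58, SE 0.156). The ratio between the siRNAs was 1.07 (95% interval 0.922 to 1.23). On the log2(FPKM + 1) scale the ATOH8 changes were 1.21 and 1.25, since its FPKM was only 0.143 ± 0.0153 in the control group and 1.64 ± 0.150 and 1.72 ± 0.0557 with the siRNAs.

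SMAD6, the inhibitory SMAD of this branch (chr15:66702236-66782849, plus strand), was at 31.1, 28.9 and 28.7 CPM in the control group. It was at 87.8, 87.6 and 90.5 CPM with siRNA1 and at 49.8, 53.6 and 44.7 CPM with siRNA2. The 3 groups did not overlap, and control was lowest as for ID1, but siRNA1 was above siRNA2. The log2 change over control was 1.59 (SE 0.0764) with siRNA1 and 0.74 (SE 0.0777) with siRNA2. SMAD6 stood 1.79-fold lower with siRNA2 than with siRNA1 (log2 difference -0.84, SE 0.0724).

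SMAD9 encodes one of the receptor-activated SMADs (chr13:36844831-36920765, minus strand). Per length it was below its relatives in the control group, at 0.457 ± 0.0902 FPKM beside 1.28 ± 0.0351 for SMAD1 and 6.98 ± 0.680 for SMAD5 (SD, n = 3 each). Its level was 3.21, 2.64 and 2.17 CPM in the control group, 1.27, 1.80 and 1.44 CPM with siRNA1, and 2.35, 3.05 and 2.39 CPM with siRNA2. With siRNA1 it lay below every control library, and with siRNA2 it overlapped them. The log2 change over control was -0.82 (SE 0.252) with siRNA1, or -0.67 without control replicate 1. With siRNA2 it was -0.04 (SE 0.231), with a 95% interval of the ratio from 0.712 to 1.33. The siRNAs differed by 0.79 (SE 0.249), or by 0.65 without siRNA2 replicate 2.

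CHRDL1, or chordin-like 1, is a secreted protein that binds BMP4 and keeps it from its receptors (chrX:110673856-110795819, minus strand). It was the member that stood lower with both siRNAs. Its level was 13.2, 13.3 and 13.7 CPM in the control group, 5.95, 7.30 and 6.26 CPM with siRNA1, and 1.55, 1.73 and 1.80 CPM with siRNA2. The 3 groups did not overlap. CHRDL1 was 2.06-fold below control with siRNA1 (log2 change -1.04, SE 0.125) and 7.89-fold below with siRNA2 (-2.98, SE 0.154). The siRNAs differed by -1.94 (SE 0.167).

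SOST encodes sclerostin, a secreted protein of the DAN family of BMP antagonists that is best known for blocking the WNT co-receptors LRP5 and LRP6 in bone (chr17:43753738-43758791, minus strand). It was counted 5, 1 and 3 times in the control group, 40, 31 and 41 times with siRNA1, and 59, 82 and 60 times with siRNA2. Control libraries were thus near the limit of 3 counts (0.152 to 0.198 CPM by library), and SOST stayed a scarce transcript, at 2.13 ± 0.397 CPM with siRNA1 and 3.60 ± 0.515 with siRNA2 (SD, n = 3 each). The ratio of scaled counts to control was 11.3 (95% interval 5.76 to 25.4) with siRNA1 and 19.4 (10.03 to 43.1) with siRNA2, where the intervals cover counting error only. Between the siRNAs SOST differed by 0.77 (SE 0.237), or by 0.65 without siRNA2 replicate 2.

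**Figure D3:**
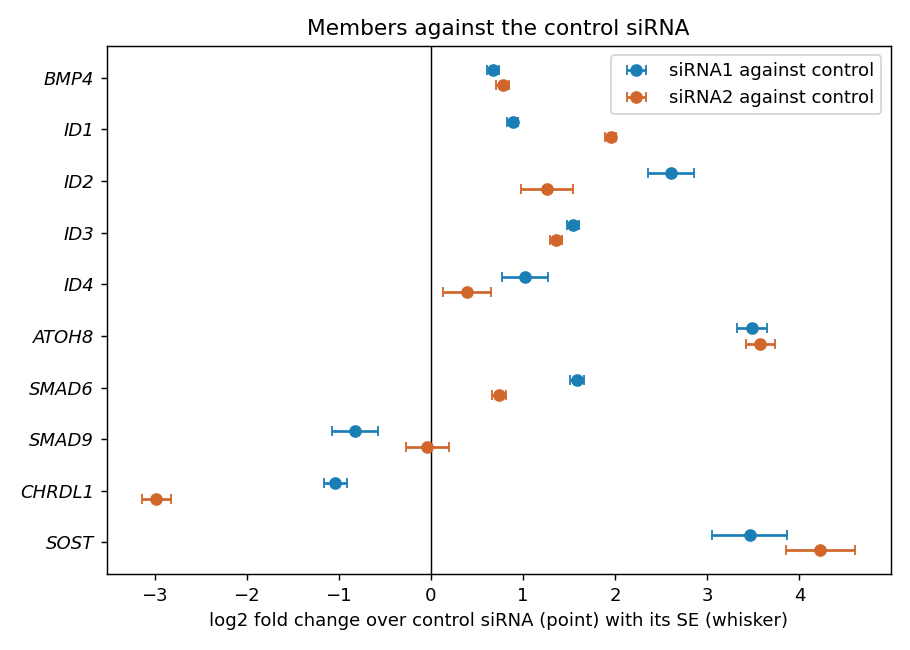
Log2 change over the control siRNA (horizontal axis) for each member with siRNA1 and siRNA2; points are estimates of edgeR and whiskers their SE. ATOH8 and BMP4 have nearly equal values with both siRNAs, whereas ID1, ID2, SMAD6 and CHRDL1 are far apart.

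Set against siRNA1 in the same libraries, siRNA2 had 3 members called higher (ID1, SMAD9, SOST), 5 lower (ID2, ID3, ID4, SMAD6, CHRDL1) and 2 not called (ATOH8, BMP4). Over all tested genes 60.4% were called, and nothing is read from the members' count. Their median log2 difference was -0.0434, beside -0.0326 over all tested genes. The ID genes thus took different orders: ID1 stood higher with siRNA2, ID2 and ID4 with siRNA1, and ID3 slightly so with siRNA1. SMAD6 also stood higher with siRNA1. Of the antagonists, CHRDL1 stood lower with siRNA2 and SOST higher.

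siRNAs can also lower transcripts that pair with their seed, so the 3′ UTRs of the members were searched for the 7-base words most linked to lower levels with each siRNA over 12626 genes. These words were picked on the same fold changes. The siRNA sequences are not given in the labels, so whether any word pairs with a seed is not known. For siRNA1 the words were AATTCCA, found in 16.8% of UTRs, and ATTCCAA, found in 14.4%, which overlap each other. Genes with AATTCCA had a median log2 change of -0.224 with siRNA1, against 0.038 without it. For siRNA2 they were ACCCTAA (7.71%) and GACCCTA (5.29%), and genes with ACCCTAA had a median of -0.233 against 0.016. MILIP held ATTCCAA, as at chr17:81928141-81928161, and the siRNA2 word GACCCTA at chr17:81930477-81930497, which are not shown. How often a transcript of its length holds such a word was not tested. The sites below are shown because CHRDL1, lower with both siRNAs, is among the members that hold one, beside a site of MILIP with the same word. Capitals mark the word, 5′ to 3′ on the gene's strand, at chrX:110674944-110674964 for CHRDL1, chr6:19839329-19839349 for ID4, chr17:43754728-43754748 for SOST and chr17:81930353-81930373 for MILIP.
CHRDL1: agtcaagAATTCCAgagaagg
ID4: attcgtcATTCCAAgagagag
SOST: gcatatgATTCCAAggactcc
MILIP: tcagggcAATTCCAaccaaga

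ID4 and SOST hold a word picked for siRNA1 and stood higher with siRNA1. No member's UTR held either word picked for siRNA2, and CHRDL1 was lowest with siRNA2. SMAD9, lower with siRNA1, held none of the 4 words. The part of these words in the members' levels was not tested.

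The rest of the pathway was read from a list of 69 genes by role, of which 39 passed the count filter. With siRNA1, 11 of the 39 rose, 14 fell and 14 were not called. With siRNA2, 19 rose, 8 fell and 12 were not called. That is 64.1% and 69.2% called, beside 50.4% and 56.1% of all tested genes. The median log2 change of the list was 0.000256 with siRNA1 and 0.316 with siRNA2, beside 0.00318 and -0.0108. The list, like the members, was chosen with earlier results of these data known, so nothing is read from its shares or medians. The adjusted p-values of its genes describe these libraries and are no independent support. Without control replicate 3, 11 rose and 15 fell with siRNA1, and 18 rose and 10 fell with siRNA2. The split with siRNA1 depended on the scale, at 14 higher and 10 lower with limma on log2(FPKM + 0.1). In all, 7 genes rose with both siRNAs, as 11.8% of all tested genes did, and 3 fell with both, as 11.1% did. There were 6 called in opposite directions, which happened in 9.93% of all tested genes.

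**Figure D4:**
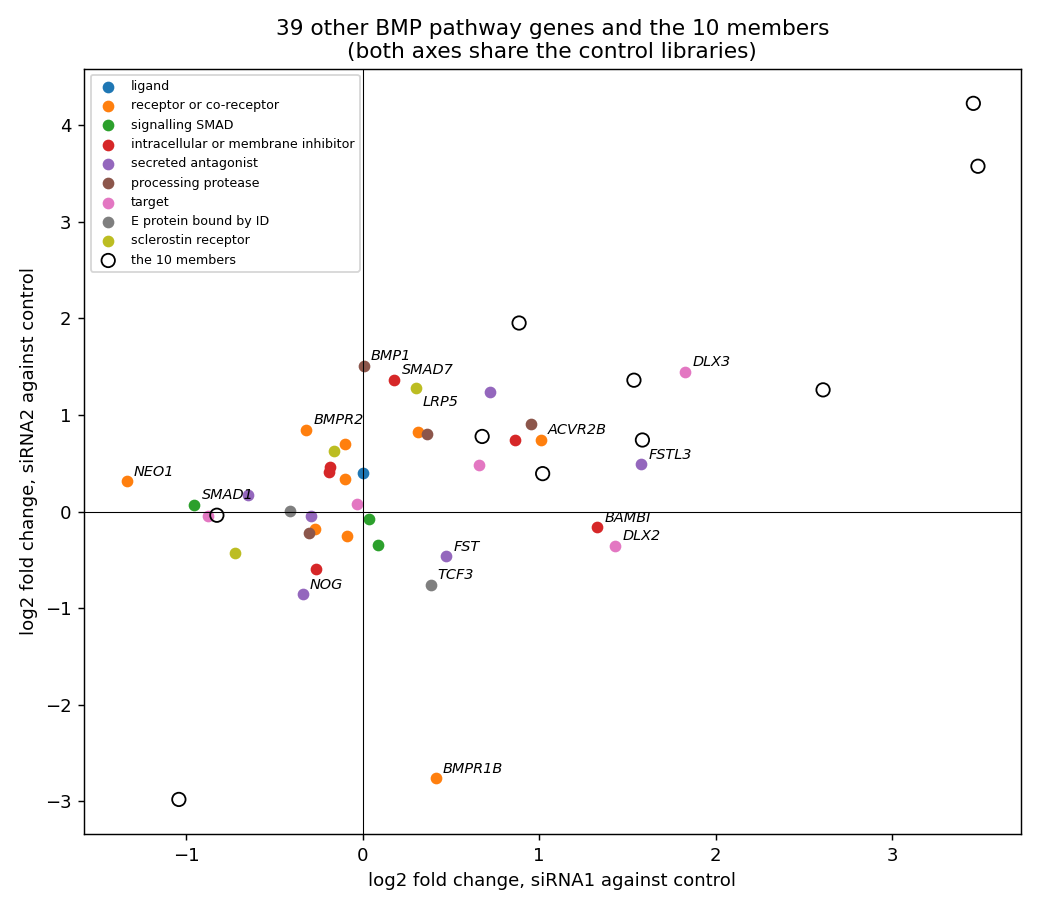
Log2 change with siRNA1 (horizontal axis) against that with siRNA2 (vertical axis) for 39 other BMP pathway genes, coloured by role, and the 10 members as open circles; the axes share the control libraries. Of the 39, 7 rose with both siRNAs and 3 fell with both, beside 11.8% and 11.1% of all tested genes. NEO1 and BMPR2 lie left of 0 and above it, and FST and TCF3 right of 0 and below it.

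Among receptors and co-receptors, 9 of 12 were tested. With siRNA1 1 rose and 3 fell, and with siRNA2 6 rose and 2 fell. Over all tested genes 25.1% rose and 25.3% fell with siRNA1, and 27.2% rose and 28.9% fell with siRNA2. The same shares stand beside the counts of each role below, and nothing is read from the counts by role. ACVR2B, a type II receptor, rose with both, from 11.2 CPM to 22.4 with siRNA1 (log2 change 1.01, SE 0.108, adjusted p = 2.58e-08) and 18.6 with siRNA2 (0.74, SE 0.109, adjusted p = 2.58e-06). BMPR2, the type II receptor specific to BMPs, was at 47.4, 49.1 and 32.9 CPM in the control group, 34.3, 39.1 and 30.3 with siRNA1, and 74.4, 80.1 and 78.4 with siRNA2. Libraries of siRNA1 overlapped control, and those of siRNA2 lay above all others. Its fall with siRNA1 (log2 change -0.32, SE 0.111, adjusted p = 0.0192) was lost without control replicate 1 (0.0964), control replicate 2 (0.155) or siRNA1 replicate 3 (0.124), and in both limma fits on FPKM (0.15 and 0.189). Its rise with siRNA2 was 0.85 (SE 0.106, adjusted p = 2.3e-07). ENG, the co-receptor endoglin, was not called with siRNA1 and rose with siRNA2 from 151.8 to 247.3 CPM (log2 change 0.70, SE 0.0609, adjusted p = 4.33e-10). NEO1, a receptor for RGM co-receptors, fell from 81.7 to 32.4 CPM with siRNA1 (-1.33, SE 0.0722, adjusted p = 9.88e-14) and rose to 101.7 CPM with siRNA2 (0.32, SE 0.0672, adjusted p = 0.000284).

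Of the type I receptors, BMPR1A rose with siRNA2 from 41.2 to 52.1 CPM (log2 change 0.34, SE 0.0746, adjusted p = 0.000417) and was not called with siRNA1 (0.281). ACVR1 fell with siRNA1 from 28.5 to 23.6 CPM (-0.267, SE 0.1005, adjusted p = 0.0297), with libraries that overlapped control, and was not called with siRNA2 (0.121). Its fall was lost without control replicate 1 (0.119), control replicate 2 (0.113) or siRNA1 replicate 2 (0.14), and in both limma fits on FPKM (0.0838 and 0.115). BMPR1B, a scarce one, had 15, 16 and 18 counts in the control group, 20, 24 and 28 with siRNA1, and 1, 5 and 2 with siRNA2, and it fell with siRNA2 (-2.76, SE 0.497, adjusted p = 4.11e-05). Of the signalling SMADs, SMAD1 fell with siRNA1 from 9.10 to 4.72 CPM (-0.95, SE 0.135, adjusted p = 2.17e-06) and SMAD5 fell with siRNA2 from 63.5 to 50.1 CPM (-0.34, SE 0.0894, adjusted p = 0.00207). SMAD4, the shared partner, was not called with either siRNA. Its 95% interval of the ratio to control was 0.919 to 1.14 with siRNA1 and 0.849 to 1.06 with siRNA2.

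The intracellular and membrane inhibitors were all tested, and of these 6 genes 2 rose and 3 fell with siRNA1, and 4 rose and 1 fell with siRNA2. SKIL, a SMAD co-repressor, rose with both, from 13.9 CPM to 25.3 with siRNA1 and 23.2 with siRNA2 (adjusted p = 5.8e-07 and 4.49e-06). SMURF2, a ubiquitin ligase that targets SMADs and receptors, fell with both, from 219.1 CPM to 182.2 and 145.3 (adjusted p = 0.00136 and 2.88e-08). SMAD7, the other inhibitory SMAD, was higher with siRNA2 than with siRNA1, whereas SMAD6 was higher with siRNA1. It was at 19.9, 19.6 and 19.0 CPM in the control group, 24.9, 22.4 and 19.2 with siRNA1, and 53.5, 53.0 and 44.0 with siRNA2. Only the siRNA2 libraries of SMAD7 lay clear of control (log2 change 1.36, SE 0.0979, adjusted p = 1.49e-11), and siRNA2 stood above siRNA1 by 1.19 (SE 0.0958, adjusted p = 9.18e-11). BAMBI, a receptor decoy, rose with siRNA1 from 5.75 to 14.5 CPM (1.33, SE 0.130, adjusted p = 5.31e-09) and stood at 5.13 CPM with siRNA2.

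Among the other secreted antagonists, 6 of 13 were tested, and 2 rose and 3 fell with siRNA1, and 2 rose and 2 fell with siRNA2. NOG, or noggin, which binds BMP4, fell with both like CHRDL1. It was at 16.9, 19.3 and 18.9 CPM in the control group, 15.8, 13.6 and 14.2 with siRNA1, and 9.66, 10.4 and 10.5 with siRNA2. Its log2 change was -0.34 (SE 0.103, adjusted p = 0.00776) and -0.85 (SE 0.106, adjusted p = 2.05e-07). FSTL3, a follistatin-like protein that binds activins and some BMPs, rose with both, from 23.3 CPM to 69.6 with siRNA1 and 32.7 with siRNA2 (adjusted p = 5.86e-12 and 0.000468). FST, or follistatin, rose from 23.6 to 32.7 CPM with siRNA1 (adjusted p = 0.00014) and fell to 17.1 CPM with siRNA2 (0.000231). TWSG1, or twisted gastrulation, fell with siRNA1 from 58.8 to 37.6 CPM (log2 change -0.65, SE 0.0790, adjusted p = 2.18e-07) and was not called at 66.4 CPM with siRNA2 (adjusted p = 0.0552). The antagonists thus moved in no one direction.

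Of the proteases that process ligands or antagonists, 4 of 6 were tested. With siRNA1 2 of them rose and 1 fell, and with siRNA2 3 rose and 0 fell. PCSK5 fell with siRNA1 from 12.1 to 9.79 CPM (log2 change -0.30, SE 0.1165, adjusted p = 0.0323) and was not called with siRNA2 (0.113). Its fall was lost in several alternatives, among them DESeq2 (0.0552) and no filter (0.0678). FURIN and PCSK6, which cleave BMP precursors, rose with both: FURIN from 95.8 CPM to 123.4 with siRNA1 and 166.6 with siRNA2, and PCSK6 from 4.44 CPM to 8.57 and 8.35. Their adjusted p was 4.45e-05 and 1.25e-10 for FURIN and 1.58e-05 and 2.17e-05 for PCSK6. BMP1, a metalloprotease that cleaves chordin and is no BMP ligand despite its name, was at 21.5 CPM in the control group and 21.6 with siRNA1, and rose with siRNA2 to 61.2 CPM (log2 change 1.51, SE 0.0832, adjusted p = 1.15e-13).

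Other genes known as BMP targets in development were mostly scarce or not detected, and 5 of 9 were tested. RUNX2, an osteoblast factor, fell with siRNA1 from 64.8 to 35.4 CPM (log2 change -0.87, SE 0.0849, adjusted p = 4.83e-09) and was at 62.9 CPM with siRNA2. DLX3, a homeobox gene, rose with both from 0.205 CPM to 0.745 and 0.574 (adjusted p = 0.00473 and 0.0248). Its call with siRNA2 was lost with DESeq2 (0.0517), with no filter (0.0527), and without control replicates 1 (0.098) or 2 (0.0624) or siRNA2 replicates 1 (0.0719) or 2 (0.0514). HEY1 and MSX2 were not called with either siRNA, with log2 changes of 0.66 (SE 0.336) and 0.49 (SE 0.340) for HEY1 and -0.03 (SE 0.157) and 0.08 (SE 0.155) for MSX2. Of the 5 tested targets, 2 rose and 1 fell with siRNA1, and 1 rose and 0 fell with siRNA2.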

How the data were processed

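RNA of 9 libraries was analysed from 1 deposited table that holds a count and an FPKM per gene and library. Per the submitters' processing notes the authors used Trimmomatic 0.30, HISAT2 2.0.1, HTSeq 0.6.1 and DESeq. The step of each tool and the strand setting of the counting are not given in the sources used here. Opposite-strand overlaps are therefore a limit for pathway genes as well as members. Among others, SMURF1 overlaps TRRAP, SMURF2 overlaps CEP95 and RUNX2 overlaps SUPT3H. TRRAP had more counts than SMURF1, whereas CEP95 and SUPT3H had fewer than SMURF2 and RUNX2. The part of such overlaps in the levels was not tested. The deposited FPKM equals the count divided by gene length and library total, within 0.005 for 100% of values. hg19 is the build named in those notes, whereas coordinates in the table follow GRCh38: 99.92% of the 58394 identifiers found in GENCODE v29 overlap the same gene.

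Low genes were removed with filterByExpr (at least 10 counts in enough libraries and 15 in all). The counts were scaled by TMM and tested in 1 fit of the 3 groups with edgeR 4.0.16 (R 4.3.3), two-sided, with Benjamini-Hochberg adjustment over 15345 genes and calls below 0.05. The SE is the log2 change divided by the square root of F. Intervals of ratios are 1.96 SE on either side, at 95%. The common biological coefficient of variation was 0.0641. Within groups, pairs of libraries had a chi-square per gene between 2.18 and 8.78, so none was counted as a repeat of another. Promoters are from RefSeq and UTRs from GENCODE v29, read with Python 3.11.15.

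The members and gene lists were chosen with earlier results of these data known. A test of the members between the siRNAs was planned, and it is given as a description for that reason. Named genes are the members, MILIP and, by role on the pathway list, the most abundant tested gene and those called with both siRNAs. BMPR1A, BMPR1B, ACVR1, SMAD1, SMAD4, SMAD7, BAMBI, BMP1, PCSK5, HEY1, MSX2, TCF12 and LRP6 were added with their values seen where the rule does not name them. Alternatives were DESeq2 1.42.0, median-of-ratios scaling, no filter, 1 CPM in 3 libraries, limma 3.58.1 on log2(FPKM + 1) and log2(FPKM + 0.1), a replicate block, the 2 groups alone, and each library left out.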

Additional observations from a re-analysis of the deposited data

Results flagged for a closer look

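On the pathway list 6 genes were called in opposite directions against control with the siRNAs. Genes picked this way must differ between the siRNAs, so the difference is given as a size with no p. Log2 of siRNA2 over siRNA1 was 1.17 for the receptor BMPR2 (SE 0.107), 1.65 for NEO1 (SE 0.0716), 0.64 for the ubiquitin ligase SMURF1 (SE 0.0720) and 0.60 for the co-repressor SKI (SE 0.0616). It was -0.94 for the antagonist FST (SE 0.0941) and -1.14 for the E protein TCF3 (SE 0.0615).

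The siRNA1 side of some of these pairs was weak. SMURF1 was at 49.5 CPM in the control group, 43.5 with siRNA1 and 67.9 with siRNA2, and its fall with siRNA1 (adjusted p = 0.0382) was lost with no filter (0.0805), in both limma fits (0.0761 and 0.0995), with the 2 groups alone (0.0704), and without control replicate 2 (0.2), siRNA1 replicates 1 (0.071) or 3 (0.134), or siRNA2 replicate 2 (0.0528). SKI was at 103.8, 91.0 and 137.9 CPM, and its fall with siRNA1 (adjusted p = 0.014) was lost in the limma fit on log2(FPKM + 0.1) (0.0593) and without control replicate 1 (0.0526). No test for single outlying libraries was run in these groups of 3.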

How the results depend on the processing

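The 6 counts of called genes, over all genes and over the pathway list, stayed within 1.5 times under all 17 alternatives each (102 in all). Leaving out 1 library gave 6857 to 7668 genes called with siRNA1, 7838 to 8925 with siRNA2 and 8636 to 9634 between the siRNAs, and 21 to 26, 25 to 28 and 25 to 29 genes of the list. For the members and MILIP, 540 of 561 alternative values kept their direction and call, 18 lost the call, and 3 changed direction. The 3 are SMAD9 with siRNA2 against control, which was not called: 0.14 without control replicate 1, 0.03 without siRNA2 replicate 1 and 0.02 without siRNA2 replicate 3, within a range of -0.17 to 0.14 when 1 library was left out. The difference in MILIP between the siRNAs (log2 -0.99, adjusted p = 0.0264) lost its call in 6 alternatives, among them without siRNA1 replicate 3 (0.308). For the 81 calls of pathway genes, 1317 of 1371 alternatives kept the call, 54 lost it and 0 changed direction.

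Same-numbered libraries correlated by -0.051 to 0.097 in their deviations, and differently numbered ones by -0.135 to 0.139. Each deviation is taken from the mean of only 3 libraries, so these values cannot tell whether the libraries were paired. With the replicate number as a block, 7750, 8604 and 9294 genes were called in the 3 comparisons, and 25, 27 and 29 of the list; no member's call changed. Depth limits SOST most: its 9 control counts leave a counting interval of the ratio of 5.76 to 25.4 with siRNA1. Adding 1 to the FPKM shrinks the changes of genes with low FPKM: on log2(FPKM + 1) SOST changed by 0.84 and 1.24, where edgeR gives 3.46 and 4.23, and CHRDL1 with siRNA2 by -1.62, where edgeR gives -2.98.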

Other observations

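The proteins that ID factors bind, and the receptors that sclerostin binds, lie one step beyond the members. Of the E proteins, basic helix-loop-helix factors held by ID proteins, 2 of 3 were tested. TCF3 was at 136.9 CPM in the control group, rose to 178.7 with siRNA1 (log2 change 0.39, SE 0.0602, adjusted p = 8.31e-06) and fell to 81.0 with siRNA2 (-0.76, SE 0.0618, adjusted p = 1.59e-10). TCF12 fell with siRNA1 from 72.2 to 54.2 CPM (-0.41, SE 0.0848, adjusted p = 0.00026) and was at 72.5 CPM with siRNA2.

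Of the sclerostin receptors all 3 were tested. LRP5, a WNT co-receptor, rose with both siRNAs, from 348.1 CPM to 429.0 with siRNA1 (0.30, SE 0.0604, adjusted p = 0.000184) and 845.5 with siRNA2 (1.28, SE 0.0608, adjusted p = 7.43e-15). LRP6 rose with siRNA2 from 64.4 to 99.6 CPM (0.63, SE 0.0861, adjusted p = 8.87e-07). LRP4, which presents sclerostin, fell with both, from 13.1 CPM to 7.95 (-0.72, SE 0.113, adjusted p = 8.55e-06) and 9.76 (-0.42, SE 0.109, adjusted p = 0.00184).

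The log2 CPM of tested genes over the 9 libraries was set against that of ID1 and of ATOH8. Most genes with clone-based names, and those named only by an Ensembl identifier, were set aside first. Of the rest, the genes most like ID1 were IL17RE (Pearson r = 0.9988), ULK1, RRAS, IFI35 and WFDC21P. Those most like ATOH8 were ANXA8 (r = 0.9981), JUP, BFSP1, ST3GAL2 and MAGED1. The 9 libraries fall in 3 groups, so these values describe the group steps and carry no test.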
